A study of Mus musculus with 2 samples.

Results

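Nuclear hormone receptors were examined in the liver of male apolipoprotein E-deficient mice fed oleanolic acid, a plant triterpenoid, in a Western diet. The family was taken as 32 named receptor genes, and every probe set annotated with 1 gene symbol from these names was used. Of the 32 genes, 30 had such a probe set, 55 probe sets in all, out of 12393 genes with a named probe set on the array. Nr1h2 (LXR-beta) and Nr3c2 (the mineralocorticoid receptor) had none and were not analysed here. The series holds 2 arrays of pooled liver RNA from apolipoprotein E-deficient mice with a C57BL/6J genetic background, 2 months of age per the labels. The oleanolic acid array carried RNA of mice given a semipurified Western diet with 0.01% oleanolic acid, supplying 10 mg per kg body weight per day, over 11 weeks. The control array carried RNA of mice given the Western diet alone over the same 11 weeks. These 11 weeks are longer than 2 months, so the labelled age cannot be the age at liver collection if both entries are right. The growth protocol of both samples names oleanolic acid, the control included, so the diets were taken from the sample titles and the diet label, and every ratio rests on these. Both groups lacked functional apolipoprotein E and ate the Western diet, so the comparison says nothing about either of these. How many animals went into each pool, and the hour at which livers were taken, the sources used here do not say. Neither diet has a second array, so no difference has a replicate check, no p-value was computed, and each value describes these 2 arrays.

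Nuclear receptors are transcription factors that bind DNA through a pair of zinc fingers and, in most members, a small lipophilic ligand through a pocket in the carboxy-terminal domain. Many work as heterodimers with a retinoid X receptor, steroid receptors bind as homodimers, and a few orphan members act without a known physiological ligand. In hepatocytes they tie dietary lipids, bile acids, hormones and xenobiotics to the transcription of metabolic enzymes.

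A receptor gene was called measured where the signal of at least 1 of its probe sets reached the array median, 59.3 units on the oleanolic acid array or 61.5 on the control array, and dim otherwise. This gave 19 measured receptor genes with 32 measured probe sets, and 11 dim ones. The measured share was 63.3% of the receptor genes against 57.6% of all 12393 genes. The table holds no detection calls, so a dim receptor is not shown to be absent. A gene that reached the median on 1 array alone had to be brighter on that array relative to the medians, so its direction follows largely from the measured rule, and such genes are pointed out below. Just inside the limit, Rarg had 64.7 units on the oleanolic acid array and 60.3 on the control array, and passed through the oleanolic acid array alone. Rxrg had 66.1 and 72.5 units in the same order. Just outside it, Nr2c2 had 46.5 and 45.3 units and Rarb 36.8 and 38.3 units, again with the oleanolic acid array first. Signals of different probe sets depend on the probes and were not set against each other.

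**Figure D1:**
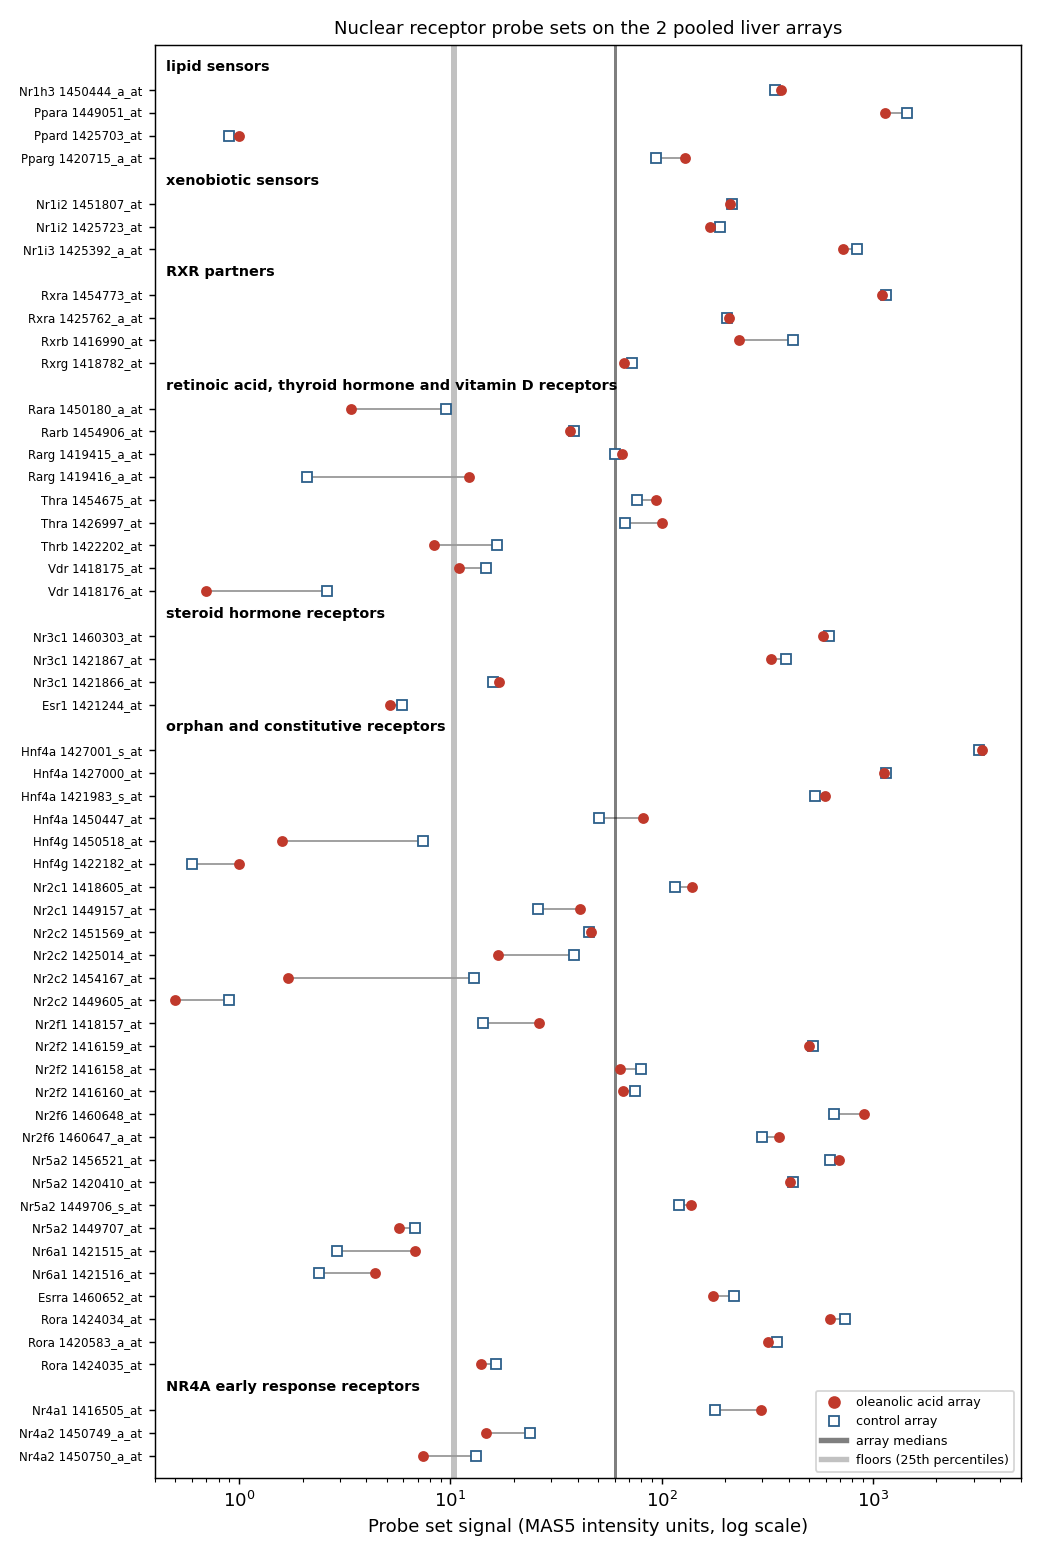
Signal of each of the 55 nuclear receptor probe sets (MAS5 intensity units, log scale) on the oleanolic acid array (filled circles) and the control array (open squares), by receptor class. The dark bar marks the array medians of 59.3 and 61.5, and the pale bar the floors of 10.1 and 10.7. Most measured probe sets have nearly overlapping symbols, while Rxrb and Nr4a1 are visibly apart.

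As a group, the measured receptors were about as often lower as higher in the oleanolic acid array. The log2 ratio of oleanolic acid over control was above 0 for 9 genes and below 0 for 10. Of all 7137 measured genes 50.2% lay above 0. The receptor median was -0.02, beside 0.0012 over all measured genes. No receptor passed the size of 1.5 named in the series' design text, in either direction. Over all measured genes 0.112% lay above 1.5 and 0.28% were lower by more than that size. None passed 1 either, where the shares of all genes were 0.392% higher and 0.631% lower. Past 0.5 there was 1 receptor higher, Nr4a1, against 2.63% of all genes, and 1 lower, Rxrb, against 3.24% of all genes. The receptors were spread more widely than the average gene. Of the 19 receptors, 11 lay within 0.25 of 0 (57.9%), against 76.6% of all genes, and the SD across receptor genes was 0.36 against 0.28 across all genes. This difference in spread was not tested.

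Each log2 ratio carries a probe set SD, which is the SD between the measured probe sets of a gene or, for a gene with 1, the SD pooled over all genes in the same one of 4 bands of mean signal. These pooled SDs were 0.27, 0.25, 0.17 and 0.13 from the dimmest to the brightest band, and they cover error within these arrays, not differences between mice. Ppara, Rxrb, Nr2f6 and Nr4a1, that is 4 of 19 receptors, lay more than 2 pooled SDs from 0, against 9.07% of all genes. Of 9 receptors with at least 2 measured probe sets, 6 had all of them on 1 side of 0. The exceptions were Rxra, Hnf4a and Nr5a2. The pooled SD between probe sets was 0.19 over these 9 receptors and 0.20 over the 2427 genes with at least 2 measured probe sets. How many of those 2427 genes had all probe sets on 1 side of 0 was not counted, so the 6 of 9 has no share beside it.

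**Figure D2:**
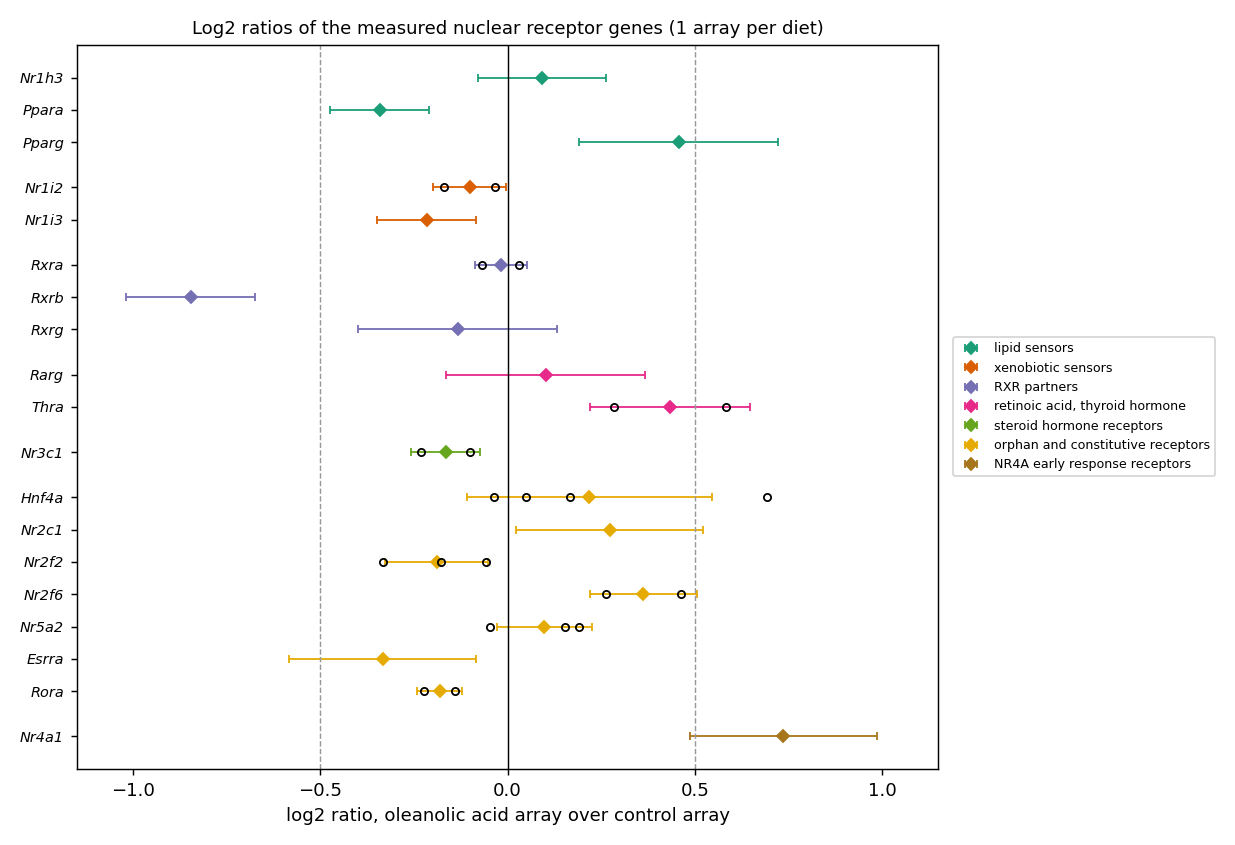
Log2 ratio of each of the 19 measured nuclear receptor genes (diamonds), oleanolic acid array over control array, coloured by class. Bars are the probe set SD, open circles the single probe sets where there are several, and dashed lines 0.5 and -0.5. Nr4a1 at 0.74 and Rxrb at -0.85 are the genes beyond the dashed lines.

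Among the lipid sensors, Ppara was lower, Pparg was above 0 and Nr1h3 was near 0. Ppara encodes PPAR-alpha, the fatty acid receptor that drives hepatic fatty acid oxidation. Its probe set had 1142 units on the oleanolic acid array and 1446 on the control array, 1.27-fold lower (log2 ratio -0.34, probe set SD 0.13). Only 7.57% of all measured genes had a lower ratio. Pparg encodes PPAR-gamma, a regulator of fat storage that is low in normal liver and high in adipose tissue. Its signals were 129 units on the oleanolic acid array and 94.1 on the control array, 1.37-fold higher, with a log2 ratio of 0.46 that is within 2 pooled SDs of 0 (probe set SD 0.27). Of 8 adipose markers, 6 had a probe set and 2 were measured, Ucp1 and Cox8b, both through the control array alone, with a summed signal over all 6 probe sets of 36.7 units on the oleanolic acid array and 251.8 on the control array. Of 8 macrophage markers, another cell type that uses Pparg, 8 were measured and 8 lay below 0, with summed signals of 11957 and 12726 units on the oleanolic acid and control arrays. No probe set of these marker lists was listed at 0, and their part in the Pparg value was not tested. In pooled bulk RNA, fewer cells of a type and less RNA per cell cannot be told apart. Nr1h3, the oxysterol receptor LXR-alpha, had 366 units on the oleanolic acid array and 343.6 on the control array (log2 ratio 0.09, probe set SD 0.17).

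The median of the target genes had the opposite sign to the receptor for Ppara. For Nr1h3 the receptor was within its probe set SD of 0 and the target median was near 0, so their signs are not read as opposed. In a list of 19 PPAR-alpha targets, 16 were measured, 14 of them above 0, with a median log2 ratio of 0.13 where Ppara itself was at -0.34. Past 0.5 there were 3 higher and 0 lower. They were Pdk4, the kinase that inhibits pyruvate dehydrogenase, at 0.93, Acot1, a cytosolic acyl-CoA thioesterase, at 0.80, and the hepatokine gene Fgf21 at 0.72. In the list of 11 LXR targets, 11 were measured, 2 above 0 and 9 below. The median was -0.03, or -0.11 with the brightest probe set alone. Past 0.5 there were 0 higher and 1 lower. That gene was Cyp7a1, whose enzyme opens the classical bile acid pathway (-0.64 ± 0.02, SD, n = 2 probe sets). The sterol half-transporter gene Abcg5 was at -0.33 and Srebf1, a lipogenic transcription factor gene under LXR control, at -0.24. Over all measured genes, the shares past 0.5 are the 2.63% and 3.24% given above, and 50.2% lay above 0.

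Both xenobiotic sensors were slightly below 0. Nr1i3 encodes CAR and Nr1i2 encodes PXR, which together induce cytochrome P450 genes in response to drugs and bile acids. Nr1i3 had 725 units on the oleanolic acid array and 842 on the control array (log2 ratio -0.22, probe set SD 0.13). The Nr1i2 probe sets had 210 and 168.7 units on the oleanolic acid array, against 214.9 and 189.8 on the control array, which gave -0.10 ± 0.10 (SD, n = 2 probe sets). Of 16 PXR and CAR target genes, 10 were measured, with a median of 0.02, 2 past 0.5 higher and 0 lower. The 2 were Cyp2b9 (1.81, probe set SD 0.27), which counted as measured through the oleanolic acid array alone and has close paralogs that could share its probes, and Gadd45b (1.61 ± 0.14, SD, n = 2 probe sets), a growth arrest gene induced by CAR and also by many stresses. The transporter gene Abcc3 was at 0.26. The median of 0.02 turned to -0.02 with quantile normalization and with all probe sets counted, and to -0.01 with lowess centring.

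All 3 retinoid X receptors, the shared heterodimer partners of the LXRs, PPARs, CAR, PXR and the retinoic acid and thyroid hormone receptors, had log2 ratios below 0, but only Rxrb by more than its error. Rxrb had 233.7 units on the oleanolic acid array and 420.0 on the control array, 1.80-fold lower (log2 ratio -0.85, probe set SD 0.17). Of all measured genes 0.967% had a lower ratio. The value rests on 1 probe set, so no second probe set bears on it. Rxra, the main isotype of hepatocytes, had 1106 and 208.6 units in its 2 probe sets on the oleanolic acid array, against 1159 and 204.2 on the control array, which gave -0.02 ± 0.07 (SD, n = 2 probe sets). Rxrg, an isotype of muscle and brain, lay close to the measured limit and was at -0.13 (probe set SD 0.27). The ratio of Rxrb was between -0.85 and -0.82 in the main setting and the 8 alternative settings. Only quantile normalization and lowess centring could change it, since its 1 probe set reached the median on both arrays.

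**Figure D3:**
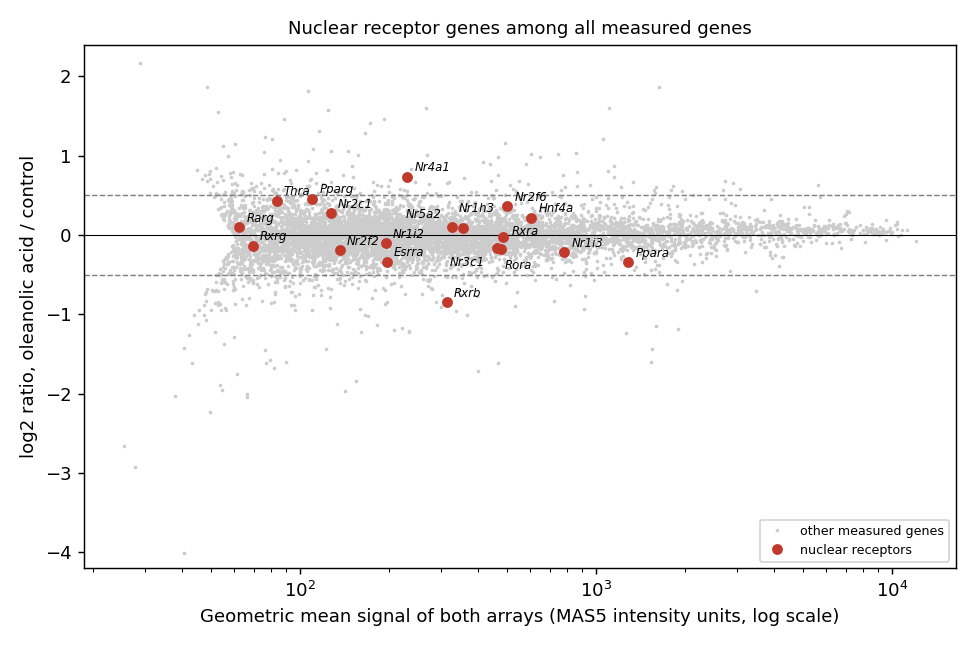
Log2 ratio, oleanolic acid over control, against geometric mean signal (MAS5 units, log scale) for all 7137 measured genes (grey) with the 19 nuclear receptors in red; dashed lines mark 0.5 and -0.5. Rxrb at -0.85 and Nr4a1 at 0.74 lie at the edges of the cloud for their signal, and the other 17 receptors lie between the dashed lines.

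Of the receptors for retinoic acid, thyroid hormone and vitamin D, only Thra and Rarg were measured. Thra encodes thyroid hormone receptor alpha. Its probe sets had 100.6 and 93.6 units on the oleanolic acid array, against 67.1 and 76.9 on the control array, and both were higher (log2 ratio 0.43 ± 0.21, SD, n = 2 probe sets). Thra overlaps the clock repressor gene Nr1d1 in the RefSeq annotation. Nr1d1 had 107.4 units on the oleanolic acid array and 60.4 on the control array (log2 ratio 0.83, probe set SD 0.27), and whether transcripts of one gene reach the probes of the other was not tested. The same holds for other measured receptors with an overlapping annotated gene: Nr1h3 with the lysosomal phosphatase gene Acp2 (log2 ratio -0.04), Nr1i3 with Tomm40l (-0.18), Hnf4a with its antisense gene Hnf4aos (-0.08) and Esrra with Trmt112 (0.18). Thrb, the main thyroid hormone receptor of liver, was dim at 8.4 units on the oleanolic acid array and 16.6 on the control array. Of 6 thyroid hormone targets, 5 were measured with a median of -0.19 and 0 past 0.5 higher. The 1 past 0.5 lower was Thrsp, a lipogenic protein gene induced by thyroid hormone and carbohydrate, at -1.61 ± 0.27 (SD, n = 2 probe sets). Dio1, the liver deiodinase that activates the hormone, was at -0.38 and the malic enzyme gene Me1 at -0.19. Rarg, retinoic acid receptor gamma, was at 0.10 (probe set SD 0.27) on the signals given above. Its second probe set was dim, with 12.3 and 2.1 units on the oleanolic acid and control arrays. Among 13 genes of retinoic acid handling and response, 5 were measured with a median of 0.15, 1 past 0.5 higher and 0 lower. The gene past 0.5 was that of the retinol esterifying enzyme Lrat, at 0.66, which reached the median on the oleanolic acid array alone. The 4 genes reaching it on both arrays had a median of 0.09 and 0 past 0.5. Besides Lrat, the retinaldehyde reductase Dhrs3 was at 0.47 and the transglutaminase Tgm2 at 0.15. Lrat is also a stellate cell marker. Of the 8 stellate cell markers 6 were measured, 2 above 0 and 4 below, with summed signals of 6614 units on the oleanolic acid array and 6711 on the control array.

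Nr3c1, the glucocorticoid receptor, was slightly below 0. Its 2 measured probe sets had 578.5 and 330.0 units on the oleanolic acid array, against 620.2 and 387.2 on the control array, which gave -0.17 ± 0.09 (SD, n = 2 probe sets). Another probe set was dim on both arrays, at 17.0 and 15.9 units. Of 16 glucocorticoid targets, 15 were measured and 4 lay above 0. Their median was -0.25, with 1 past 0.5 higher and 2 lower. Tat, the tyrosine aminotransferase gene, was at -0.70 and Lcn2, an acute phase lipocalin gene, at -0.55, while the cell cycle inhibitor gene Cdkn1a, measured through the oleanolic acid array alone, was at 0.53. Among 9 genes of steroid receptor chaperones, 6 were measured and 6 lay within 0.5 of 0, as did 6718 of all 7137 measured genes. The lowest chaperone gene was Fkbp5, itself a glucocorticoid target, at -0.46, with Fkbp4 at 0.09 and Hspa8 at -0.08. The estrogen receptor gene Esr1 was dim, with 5.2 units on the oleanolic acid array and 5.9 on the control array.

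Of the orphan and constitutively active receptors, Nr2f6 was higher, Esrra and Rora were below 0, and Hnf4a and Nr5a2 had measured probe sets on both sides of 0. Nr2f6 encodes EAR2, a repressor of the COUP-TF group. Its probe sets had 903.7 and 359.1 units on the oleanolic acid array, against 655.5 and 299.5 on the control array, and both were higher (log2 ratio 0.36 ± 0.14, SD, n = 2 probe sets). Nr2f2, COUP-TFII, went the other way in all 3 of its probe sets, at 497.7, 63.5 and 66.0 units on the oleanolic acid array against 518.2, 79.9 and 74.6 on the control array (-0.19 ± 0.14, SD, n = 3 probe sets). Nr2f2 is expressed in endothelium as well as hepatocytes. Of 6 endothelial markers, 6 were measured, with 4 above 0 and 2 below and summed signals of 1397 units on the oleanolic acid array and 1490 on the control array. Their part in the Nr2f2 value was not tested. Nr2c1, the testicular receptor TR2, had 139.9 units on the oleanolic acid array and 115.8 on the control array (log2 ratio 0.27, probe set SD 0.25). Its dim probe set had 41.1 and 25.9 units.

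Hnf4a encodes the master regulator of hepatocyte identity, and its probe sets disagreed by signal. The 3 brighter ones had 3291, 1125 and 596 units on the oleanolic acid array, against 3178, 1153 and 531 on the control array, with log2 ratios of 0.05, -0.04 and 0.17. The dimmest had 81.3 units on the oleanolic acid array and 50.3 on the control array, a log2 ratio of 0.69, and it counted as measured through the oleanolic acid array alone. With it the gene was at 0.22 ± 0.33 (SD, n = 4 probe sets), and with the brightest probe set alone at 0.05. Over the main setting and the 8 alternatives, Hnf4a lay between 0.05 and 0.33. Nr5a2, the orphan receptor LRH-1 of bile acid and cholesterol genes, had 694, 405.7 and 138.1 units in 3 measured probe sets on the oleanolic acid array, against 624.6, 419.2 and 121.1 on the control array (0.10 ± 0.13, SD, n = 3 probe sets). Its dim probe set had 5.7 and 6.8 units on the oleanolic acid and control arrays. LRH-1 is also made in the exocrine pancreas. Of 8 pancreatic digestive enzyme markers, 7 had a probe set and 7 were measured, all through the control array alone. Their summed signals were 420.7 units on the oleanolic acid array and 1550.5 on the control array. Their part in the Nr5a2 value was not tested. In the list of 15 HNF4-alpha and LRH-1 targets, 14 were measured with a median of 0.07, and 2 were past 0.5 in each direction. Nr0b2, the corepressor SHP, was at 0.75, the sterol 12-alpha-hydroxylase Cyp8b1 at 0.62, Cyp7a1 at -0.64 as above, and the remaining one, liver pyruvate kinase Pklr, at -0.55.

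Esrra encodes the estrogen-related receptor ERR-alpha, which works with the coactivator PGC-1-alpha on mitochondrial genes. It had 175.3 units on the oleanolic acid array and 220.9 on the control array (log2 ratio -0.33, probe set SD 0.25). The PGC-1 genes Ppargc1a and Ppargc1b were the lowest of 12 measured coactivators, at -0.46 ± 0.15 (SD, n = 5 probe sets) and -0.47 (probe set SD 0.17), and Crebbp, a histone acetyltransferase gene, was at 0.23. All 12 coactivators lay within 0.5 of 0, with a median of -0.10. The 8 measured corepressors also all lay within 0.5 of 0, with a median of 0.02 and Tbl1x (-0.22), Nrip1 (0.13) and Tbl1xr1 (-0.13) as their largest values. Of all 7137 measured genes, 6718 lay within 0.5 of 0, so most genes did the same.

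Rora encodes ROR-alpha, an activator that binds the same DNA elements as the REV-ERB repressors encoded by Nr1d1 and Nr1d2. Its measured probe sets had 629.2 and 318.6 units on the oleanolic acid array, against 734.5 and 350.9 on the control array, and both were lower (log2 ratio -0.18 ± 0.06, SD, n = 2 probe sets). Another was dim, at 14.0 and 16.4 units. In a list of 10 textbook ROR and REV-ERB target genes, not searched here for such elements, 9 were measured and 8 lay above 0. Past 0.5 there were 6 higher and 0 lower, with a median of 0.72 where Rora was at -0.18. The list was written with earlier results of these arrays known. Arntl, the clock activator BMAL1, was at 1.87, Elovl3, a fatty acid elongase gene, at 1.86, and Nr1d1 at 0.83. Arntl, Nr1d1 and Cry1 reached the median on the oleanolic acid array alone. The 6 genes reaching it on both arrays had a median of 0.69, with 4 past 0.5 higher and 0 lower. Nr1d2 went the other way from Nr1d1, with 1598 units on the oleanolic acid array and 2392 on the control array (log2 ratio -0.58, probe set SD 0.13). In the wider list of 19 clock and clock output genes, 16 were measured, 4 past 0.5 higher and 7 lower, with 2 higher and 7 lower among the 13 that reached the median on both arrays. Of all 7137 measured genes 2.63% were past 0.5 higher and 3.24% lower. Of the 6805 genes that reached the median on both arrays, 1.87% were higher and 2.13% lower. After Arntl, the largest values of the clock list were those of the period gene Per3 (-1.84) and the clock-controlled deubiquitinase gene Usp2 (-1.71). The hour of tissue collection, which such genes follow, is unknown. Its part in the receptor values was not tested. Besides Nr1d1, Nr1d2 and Nr0b2, the bile acid receptor gene Nr1h4 was the remaining measured one of 17 other nuclear receptor genes, with 1211 units on the oleanolic acid array and 1214 on the control array (-0.0029, probe set SD 0.13).

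**Figure D4:**
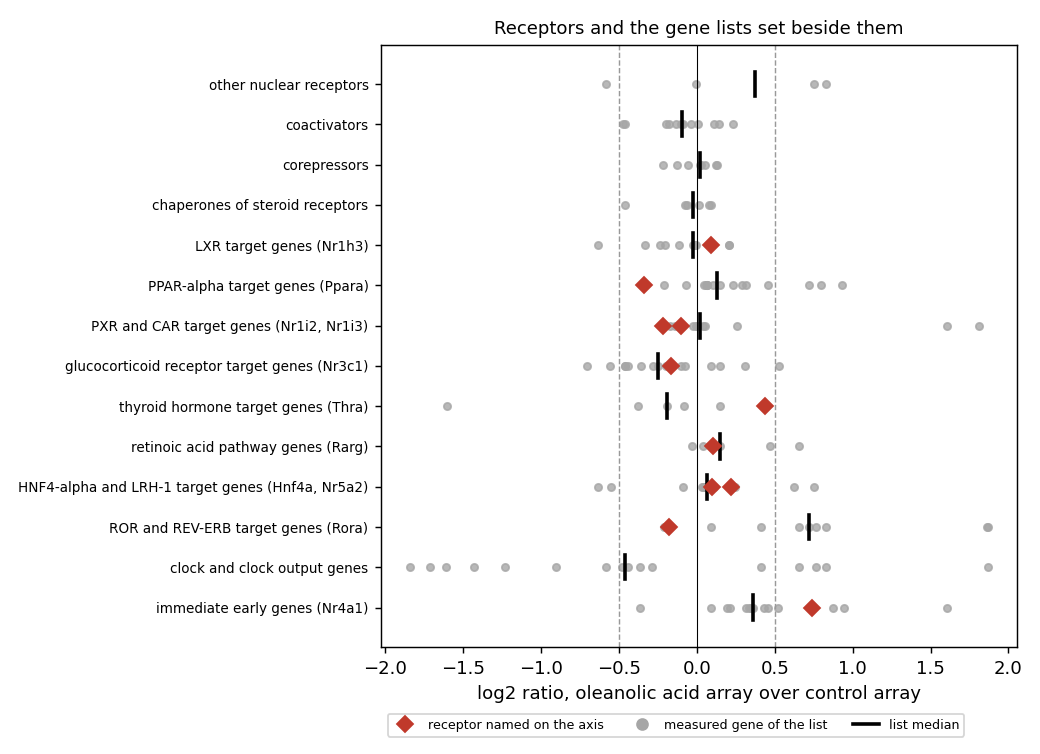
Log2 ratio, oleanolic acid over control, of every measured gene (grey circles) in the 14 lists set beside the receptors, with the list median (black bar) and the receptor named on the axis (red diamonds); dashed lines mark 0.5 and -0.5. Ppara, Thra and Rora lie on the other side of 0 from the median of their list. So do Nr1i2 and Nr1i3, though not in 3 of the 8 alternatives, and Nr1h3, where both values are near 0. Nr4a1 at 0.74 lies on the same side as the median of the immediate early genes at 0.36.

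Nr4a1 had the highest ratio of the measured receptors. It encodes NUR77, an orphan receptor switched on within minutes of hormonal, inflammatory or stress signals as an immediate early gene, and it promotes gluconeogenesis in mouse liver. Its 1 probe set had 297 units on the oleanolic acid array and 178 on the control array, 1.67-fold higher (log2 ratio 0.74, probe set SD 0.25). Of all measured genes 0.869% had a higher ratio. Its relative Nr4a2 (NURR1) was dim in both probe sets, with 14.7 and 7.4 units on the oleanolic acid array and 23.8 and 13.2 on the control array. Of 19 immediate early genes in the list beside it, 15 were measured, 14 above 0, with a median of 0.36, 5 past 0.5 higher and 0 lower. The largest were Gadd45b at 1.61, the transcription factor gene Atf3 at 0.95 and Fos at 0.87. The value of Nr4a1 was between 0.74 and 0.76 in the main setting and the 8 alternatives. As for Rxrb, only quantile normalization and lowess centring could change it.

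The 250 bases upstream of the annotated start are shown for Nr4a1 and Nr4a2, and for Rxrb as the lowest receptor. Some immediate early genes can be induced through cyclic AMP response elements, which is 1 route among others. The sequences are from RefSeq with build GRCm38.p6, read 5′ to 3′ on the strand of the gene, and 29 of the 32 receptors had an entry. Capitals mark TGACG, the core of the cyclic AMP response element, on either strand (CGTCA on the other).
Nr4a1, chr15:101266596-101266845, plus strand: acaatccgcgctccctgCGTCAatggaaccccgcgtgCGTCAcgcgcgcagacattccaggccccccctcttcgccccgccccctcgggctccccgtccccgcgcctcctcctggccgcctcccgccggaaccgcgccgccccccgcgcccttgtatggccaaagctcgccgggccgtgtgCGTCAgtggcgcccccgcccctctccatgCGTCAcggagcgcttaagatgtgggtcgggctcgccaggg
Nr4a2, chr2:57124004-57124253, minus strand: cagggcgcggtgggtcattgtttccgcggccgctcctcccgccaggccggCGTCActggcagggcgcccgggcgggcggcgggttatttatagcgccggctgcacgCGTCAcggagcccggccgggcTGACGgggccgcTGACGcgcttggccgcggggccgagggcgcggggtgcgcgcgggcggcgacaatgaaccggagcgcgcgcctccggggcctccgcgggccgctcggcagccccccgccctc
Rxrb, chr17:34031562-34031811, plus strand: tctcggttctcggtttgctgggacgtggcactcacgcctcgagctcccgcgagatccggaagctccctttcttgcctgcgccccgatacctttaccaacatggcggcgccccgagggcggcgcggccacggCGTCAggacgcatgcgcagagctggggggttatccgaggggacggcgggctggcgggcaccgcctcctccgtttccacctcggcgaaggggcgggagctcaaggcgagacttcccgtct
The Nr4a1 window holds 4 copies, whose first bases lie 233, 213, 69 and 40 bases before the start. The Nr4a2 window also holds 4, at 200, 144, 123 and 111 bases, and the Rxrb window 1, at 119 bases. Rxrb has a second annotated start, whose window holds 0. At least 1 copy was found for 9 of the 29 receptors (31.0%) and for 19.8% of 27025 genes, and at least 4 copies for 0.163% of genes. A gene with several annotated starts counted by its window with the most copies, so genes with more starts had more chances. Of all 32851 single windows 17.8% held TGACG. The share of receptor windows was not computed, so the 2 gene shares are not read as a difference. Of 15 immediate early genes with an entry, 7 held TGACG, up to 3 copies each. These are not the same 15 as the measured ones: Egr2, Fosb and Fosl2 are among them, and Ier2, Egr1 and Myc are not. The receptor half-site AGGTCA, searched on both strands and counted in the same way, was found upstream of 7 of the 29 receptors (24.1%) and of 15.8% of genes. Of all single windows 14.0% held it. It was found neither in the Nr4a nor in the Rxrb windows. These are matches of letters, chosen after the signals were seen, and do not show binding. Nr4a2 was dim on both arrays, and whether the TGACG copies bear on the signal of either Nr4a gene was not tested.

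The remaining dim receptors have signals at which MAS5 values carry little information. Ppard (1.0 unit on the oleanolic acid array and 0.9 on the control array), Rara (3.4 and 9.5), Esr1, Hnf4g and Nr6a1 lay at or under the floor, the 25th percentile of each array, on both arrays in all their probe sets. No ratio is given for these 5. Hnf4g, a paralog of Hnf4a of the gut and kidney, had 1.6 and 1.0 units in its probe sets on the oleanolic acid array and 7.4 and 0.6 on the control array. Nr6a1, the germ cell nuclear factor, had 6.8 and 4.4 units on the oleanolic acid array, against 2.9 and 2.4 on the control array. The vitamin D receptor gene Vdr had 11.0 and 0.7 units on the oleanolic acid array, against 14.8 and 2.6 on the control array. Nr2f1 (COUP-TFI) had 26.3 and 14.3 units in the same order. Rarb, a retinoic acid receptor gene that is itself induced by retinoic acid, had nearly equal signals, as given above. Nr2c2 (TR4) showed how far dim probe sets scatter: of its other probe sets, 1 had 16.8 units on the oleanolic acid array and 38.5 on the control array, 1 had 1.7 and 12.9, and 1 had 0.5 and 0.9, beside the nearly equal pair of the brightest.

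The samples were checked against markers of liver. All 6 measured hepatocyte markers lay within 0.5 of 0, with summed signals of 110459 units on the oleanolic acid array and 108087 on the control array. Within 0.5 of 0 there were also 6718 of all 7137 measured genes. Of 5 B and plasma cell markers, 2 were measured, Jchain through the control array alone, with sums of 481.7 and 1593.7 units on the oleanolic acid and control arrays. Of the 5 cholangiocyte markers 1 was measured, Epcam, with sums of 135.0 and 134.6 units in the same order. Of the 5 T and NK cell markers 1 was measured, Ms4a4b, with sums of 97.4 and 154.2 units. Both passed through the control array alone. The part of these cells in the receptor values was not tested.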

How the data were processed

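The deposited values are linear intensities of Affymetrix probe sets, made by the authors with MAS5 (version not stated), per the submitters' processing notes. After trimming 2% at both ends, the mean signal was 300.0 for oleanolic acid and for control, and no further scaling was applied. The genome build behind the probes is not given in the sources used here. Of 22690 probe sets, 64 were Affymetrix controls, 20380 had 1 gene symbol in the platform annotation, 691 had several and 1555 had none. Of the named ones, 20351 matched RefSeq (GRCm38.p6) by gene identifier and 0 symbols changed. No probe set with several symbols named a receptor studied here.

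Signals were raised to the 25th percentile of their array (10.1 for oleanolic acid, 10.7 for control) and converted to log2. A gene's measured probe sets were averaged to its log2 ratio, and signals given for single probe sets are as deposited. Having 1 array per diet limits the precision. No test was run. Analysis used Python 3.11.15 with pandas 2.3.3 and statsmodels 0.14.6, and the code was tested on simulated data. The receptors, the 14 companion lists (179 genes, 17 of them in more than 1 list, 129 measured) and the sizes were chosen with earlier results of these data known. All receptors are named, with the 3 companion genes of largest absolute ratio per list. Genes named beyond these, such as Nr1h4, Cry1 and Pklr, were chosen after their values were seen. The 8 alternatives changed the floor, the measured rule, the normalization or the summary over probe sets.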

Additional observations from a re-analysis of the deposited data

How the results depend on the processing

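No receptor past 0.5 changed sign in any of the 8 alternatives. These receptors, Rxrb and Nr4a1, have 1 probe set each, which reached the median on both arrays. Only quantile normalization and lowess centring could therefore change them. The same holds for other receptors that have 1 such probe set and no dim one. All 151 receptor gene values stayed within 1 probe set SD (or the pooled SD of the signal band, where larger) of the gene's value. Rarg has none where both signals must reach the median. Of 190 values of single receptor probe sets, 1 moved further, the dimmest of Hnf4a, at 0.40 with the floor at the array median. With all probe sets counted as measured, which adds the dim ones, 2 of 30 receptors were past 0.5 higher and 3 lower, against 3.65% and 5.58% of all 12393 genes, and the receptor median was -0.083, where the median of all genes was -0.082, a value set by the unequal floors of the arrays. In that setting the medians were -0.036 for coactivators, 0.066 for PPAR-alpha targets, -0.15 for glucocorticoid receptor targets and -0.034 for retinoic acid genes. With the brightest probe set alone they were -0.11 for LXR targets and -0.080 for thyroid hormone targets, and with both signals required to reach the median the clock list was at -0.58. The other 97 list medians moved by less than their error. Quantile normalization and lowess centring moved no receptor count. No paired analysis was possible because each diet has 1 array.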
